A study of Mus musculus with 6 samples.

Results

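The 10 classical targets of the FoxO factors in metabolism and muscle atrophy that were followed in skin wounds are Pdk4, Irs2, Insr, Txnip, Sesn1, Sesn3, Fbxo32, Trim63, Eif4ebp1 and Pik3ip1. They were chosen by name, and their probes were found through the RefSeq accession printed on the array. All 10 genes had at least 1 probe, 14 probes in all, and every one of the 14 was well above background on all 6 arrays, so the 10 genes stand among 16411 genes tested. RNA came from skin wounds of male C57/BL6 mice on day 3 after injury, in 3 wild-type (WT) samples and 3 samples of FoxO1 +/- mice, heterozygous for Foxo1, measured on 6 one-colour Agilent arrays. The wounds, 4 through the whole skin of the back, were made with a punch of 4 mm and taken with one of 6 mm, which also holds the skin around the wound. The sources used here do not give the age of the mice, how the Foxo1 allele was made, or whether each sample came from a separate mouse or pooled wounds. The p-values therefore describe only how far these 6 arrays scatter. The comparison asks whether the expression of these targets differs between WT mice and Foxo1 heterozygotes.

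FoxO proteins are forkhead transcription factors that insulin and growth factors switch off: the insulin receptor, its adaptors and PI3-kinase activate Akt, and Akt phosphorylates FoxO and drives it out of the nucleus. When the signal falls, FoxO returns to the nucleus and turns on genes that spare glucose, restrain growth and, in muscle, break down protein. Several of these targets feed back on the pathway itself, as Irs2, Insr and Pik3ip1 do.

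The members differ in whether the DNA before their start holds the letters FoxO is known to bind. In the 250 bases before the RefSeq start, the FoxO core GTAAACA, searched on both strands, occurred in 2 of the 7 members with a window in the RefSeq table (Txnip and Trim63), and in 3.54% of the 27025 genes with a window. The insulin response element core AAAACAA, also on both strands and searched separately from GTAAACA, with which it shares no match in these windows, occurred in 2 of 7 members (Irs2 and the second Sesn1 start), and in 9.42% of genes. The windows of 3 of the members that carry such a match are shown, with the match in capitals. That of the second Sesn1 start is not shown, and its match began at position -169 relative to the start, on the opposite strand. The windows are from build GRCm38.p6, Txnip at chr3:96557707-96557956 on the + strand, Trim63 at chr4:134314870-134315119 on the + strand and Irs2 at chr8:11008930-11009179 on the - strand, all read 5′ to 3′ along the gene.
Txnip: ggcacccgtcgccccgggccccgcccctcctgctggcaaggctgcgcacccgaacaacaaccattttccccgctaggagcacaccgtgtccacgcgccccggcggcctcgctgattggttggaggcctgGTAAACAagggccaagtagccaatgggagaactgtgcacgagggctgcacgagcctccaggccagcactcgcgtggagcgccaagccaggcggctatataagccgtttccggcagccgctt
Trim63: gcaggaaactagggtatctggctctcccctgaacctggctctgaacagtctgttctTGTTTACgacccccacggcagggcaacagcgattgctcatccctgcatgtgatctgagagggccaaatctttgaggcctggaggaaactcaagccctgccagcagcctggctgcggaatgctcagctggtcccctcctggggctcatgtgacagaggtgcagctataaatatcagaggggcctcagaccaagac
Irs2: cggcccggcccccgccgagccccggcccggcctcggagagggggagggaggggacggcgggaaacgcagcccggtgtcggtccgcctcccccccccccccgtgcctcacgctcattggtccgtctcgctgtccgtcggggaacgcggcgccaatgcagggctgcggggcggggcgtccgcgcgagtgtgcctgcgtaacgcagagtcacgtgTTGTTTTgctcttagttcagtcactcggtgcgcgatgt
The match began at position -121 relative to the start in Txnip, at -194 in Trim63, where it lies on the opposite strand as TGTTTAC, and at -38 in Irs2, also on the opposite strand, as TTGTTTT. No match was found in the windows of Pdk4, Sesn3, Pik3ip1 and the first Sesn1 start. A match is a run of letters, not a measured binding site.

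Levels below are log2 signals relative to each array's 75th percentile, and they compare arrays for 1 probe, not 1 gene with another. The tissue was that of a healing skin punch: keratin genes such as Krt14 and Krt16, the neutrophil gene S100a9, the collagen gene Col1a2 and all 22 skeletal muscle and 15 adipocyte markers examined were well above background on all arrays of at least 1 genotype. Foxo1 itself was lower in all 3 FoxO1 +/- arrays on both of its probes, with log2 differences of -0.48 (SE 0.14) and -0.89 (SE 0.14), neither past the limma adjustment (adjusted p 0.650 over genes and 0.190 over probes). The position of those probes relative to the altered part of the gene was not known here. FoxO1 +/- replicate 3 was the dimmest array, with 64.3% of spots well above background against 70.1% to 71.9% on the other 5.

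None of the 10 targets differed between the genotypes beyond the spread of the arrays. Their log2 differences, FoxO1 +/- minus WT, ran from -0.22 for Irs2 to 0.05 for Sesn3, with 8 below 0 and 2 above it, where 53.7% of all genes had the higher mean in FoxO1 +/- wounds. That split turned with single arrays: leaving out WT replicate 3 put 8 of 10 above 0, leaving out FoxO1 +/- replicate 3 put 7 there, and leaving out WT replicate 2 put 1 there. The median absolute difference was 0.029, against a median of 0.086 over all genes tested. By limma, 0 of 10 members passed an adjusted p of 0.05 (0.00609% of all genes, or 1 gene, did) and 0 passed an unadjusted p of 0.05 (6.25% of all genes did). No member had genotypes that did not overlap, as 11.5% of all genes had, and none differed by 1.5-fold or more, as 3.88% did. The smallest limma adjusted p among them was 0.932, that of Irs2.

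For most members the main fit, on the brightest probe of each gene and without a block, bounded the difference. For 7 members, namely Insr, Txnip, Sesn1, Sesn3, Fbxo32, Eif4ebp1 and Pik3ip1, both ends of the limma 95% interval, not adjusted for the number of genes, lay inside 1.5-fold. The interval of Insr put the FoxO1 +/- level at 0.82 to 1.12 of WT, and that of Eif4ebp1 at 0.82 to 1.21 of WT. The second Insr probe, described below, was at 1.17 of WT, above the interval of the brightest. No interval was taken with the row of the arrays on the slide as a block, where Fbxo32 differed (log2) by 0.31. The intervals of Pdk4, Irs2 and Trim63 passed 1.5-fold at 1 end or both: 0.42 to 2.35 of WT for Pdk4, 0.624 to 1.18 for Irs2 and 0.551 to 1.599 for Trim63.

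**Figure D1:**
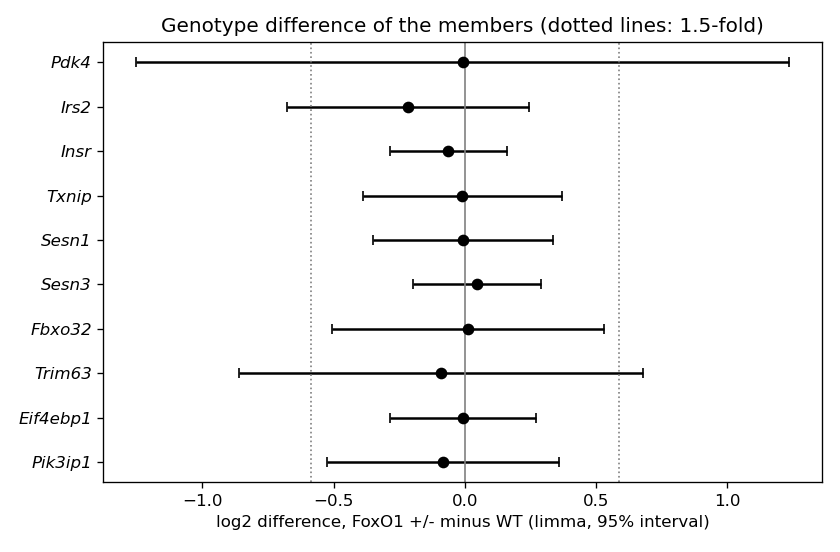
Log2 difference of each member, FoxO1 +/- minus WT (horizontal axis), as points with limma 95% intervals, from 3 arrays per genotype; dotted lines mark 1.5-fold. All 10 intervals cover 0, and that of Pdk4 is the widest, from -1.25 to 1.24.

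Among the genes of insulin signalling, Irs2, an adaptor that carries the signal from the insulin receptor to PI3-kinase, had the largest difference of the 10. Its level was 2.29, 2.97 and 2.90 on WT replicates 1, 2 and 3 and 2.48, 2.59 and 2.44 on FoxO1 +/- replicates 1, 2 and 3. WT replicate 1 was the lowest of the 6 and the other two WT arrays were the highest, so the FoxO1 +/- arrays lay between them. The log2 difference was -0.22 (SE 0.19, limma adjusted p 0.932, exact permutation p 0.4). Without WT replicate 1 it was -0.43, with a limma unadjusted p of 0.00456 and an adjusted p of 0.761.

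Insr, which encodes the insulin receptor, was measured by 3 probes of the same accession, and they did not give 1 answer. On the brightest, the level was -1.21, -1.34 and -1.06 in WT and -1.23, -1.300 and -1.27 in FoxO1 +/- wounds, giving a log2 difference of -0.06 (SE 0.09). The FoxO1 +/- values again sat inside the WT range. On the second probe, A_55_P2173927, all 3 FoxO1 +/- arrays were higher than all 3 WT arrays: -2.32, -2.46 and -2.36 against -2.64, -2.72 and -2.47, a log2 difference of 0.23 (SE 0.10). That separation, which 12.8% of all kept probes show in either direction, had a limma unadjusted p of 0.0533 and an adjusted p of 0.755 over probes, where 6.71% and 0.0237% of kept probes were under 0.05. The closest arrays were WT replicate 3 at -2.470 and FoxO1 +/- replicate 2 at -2.459. The third probe differed by -0.03 (SE 0.12). Where the 3 probes lie along the transcript was not known here.

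Pik3ip1, a membrane protein that restrains PI3-kinase, was at 1.42, 0.96 and 1.58 in WT and 1.29, 1.38 and 1.05 in FoxO1 +/- wounds. WT replicate 2 was the lowest array and WT replicate 3 the highest. The log2 difference was -0.08 (SE 0.18).

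Of the genes of fuel use, Pdk4 varied most of all the members. It encodes a kinase that switches off pyruvate dehydrogenase and so spares glucose when fat is burned. Its level was 1.43, 1.04 and 3.00 in WT against 2.11, 1.83 and 1.5004 in FoxO1 +/- wounds. WT replicate 3 was the highest of all and WT replicate 2 the lowest, 1.96 log2 units apart, while the means of the genotypes, 1.82 ± 1.04 (SD, n = 3) and 1.82 ± 0.31 (SD, n = 3), were the same to 2 decimals. The difference was -0.01 (SE 0.51), and it rested on single WT arrays: it was 0.58 without WT replicate 3 (limma unadjusted p 0.0459, adjusted p 1.00) and -0.40 without WT replicate 2.

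Txnip, which binds thioredoxin and limits glucose uptake, ordered the arrays much as Pdk4 did, over a smaller range. It lies on chromosome 3, as Foxo1 does. Its level was 4.30, 4.20 and 4.77 in WT and 4.47, 4.39 and 4.39 in FoxO1 +/- wounds, which differ (log2) by -0.01 (SE 0.16). The second Txnip probe gave 1.33, 1.32 and 1.67 in WT and 1.45, 1.28 and 1.44 in FoxO1 +/- wounds, a difference of -0.05 (SE 0.12). On both probes WT replicate 3 was the highest array. Across the 6 arrays the Pearson correlation of Pdk4 with Txnip was 0.98, given as a description of 6 points that share WT replicate 3 as their extreme.

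**Figure D2:**
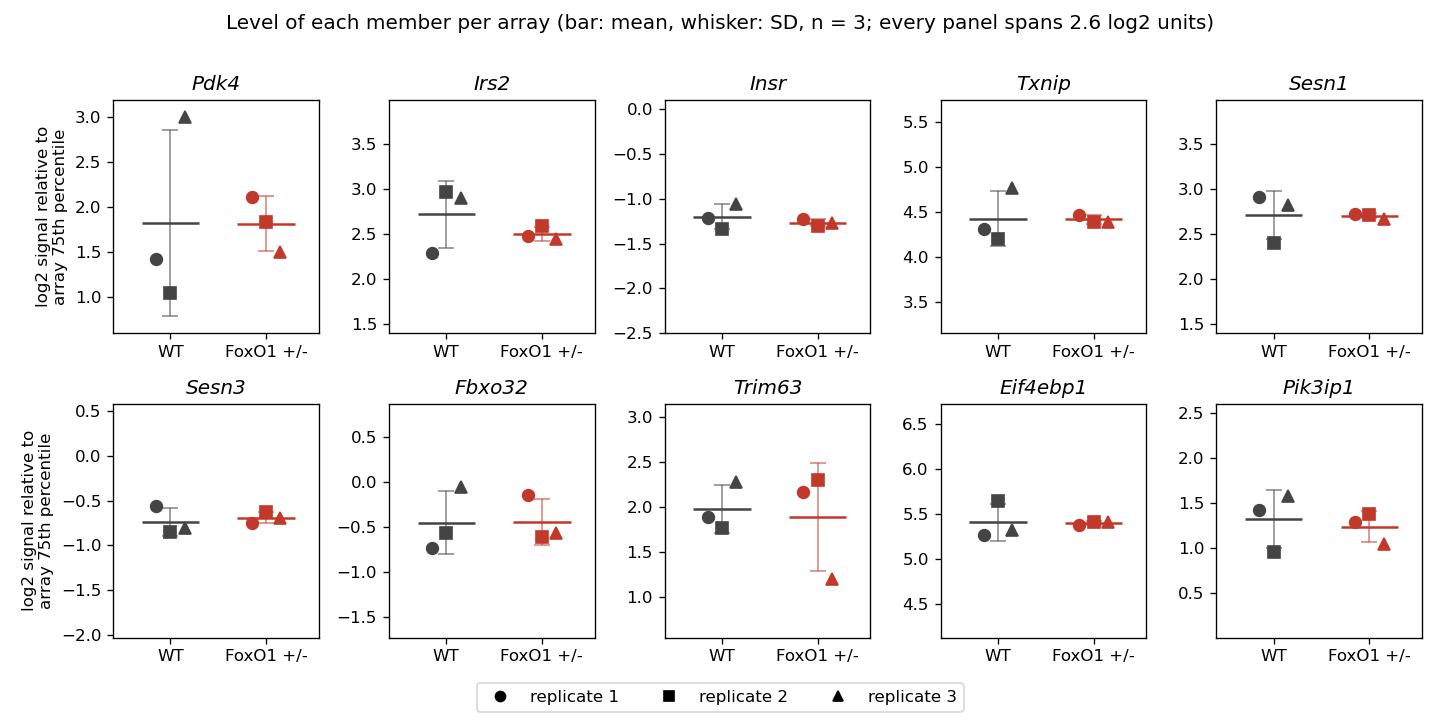
Level of each member on each array (vertical axis, log2 signal relative to the array's 75th percentile), with the mean (bar) and SD (whisker) of 3 arrays per genotype and a symbol for each replicate number; every panel spans the same log2 range. Pdk4 ran from 1.04 to 3.00 in WT, and the 3 FoxO1 +/- values of Eif4ebp1 lay between 5.38 and 5.41.

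The genes that restrain growth signalling through TOR also had small differences. Sesn1 and Sesn3 encode sestrins, stress-induced proteins that hold TOR complex 1 down. Sesn1 was at 2.91, 2.40 and 2.82 in WT and 2.73, 2.71 and 2.67 in FoxO1 +/- wounds, which differ (log2) by -0.01 (SE 0.14). Sesn3 was at -0.56, -0.85 and -0.80 in WT and -0.75, -0.63 and -0.70 in FoxO1 +/- wounds, a difference of 0.05 (SE 0.10). WT replicate 1 was the highest and WT replicate 2 the lowest for both.

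Eif4ebp1, which encodes a repressor of cap-dependent translation that TOR inactivates, went the other way among the WT arrays. It was at 5.26, 5.64 and 5.32 in WT, highest on WT replicate 2, and at 5.38, 5.41 and 5.41 in FoxO1 +/- wounds, which differ (log2) by -0.01 (SE 0.11). Its Pearson correlation with Sesn1 over the 6 arrays was -0.995, the lowest among the 45 pairs of members, as a description with no test. Their relatives gave no called difference either: Sesn2 differed by -0.21 (SE 0.19), Eif4ebp2 by -0.14 (SE 0.09) and Eif4ebp3 by -0.07 (SE 0.07).

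The atrophy genes differed more between arrays of 1 genotype than between the genotypes. Trim63 and Fbxo32 encode the muscle ubiquitin ligases MuRF1 and atrogin-1, which tag muscle protein for breakdown, and mouse skin has a thin muscle layer beneath it. Trim63 was at 1.89, 1.77 and 2.28 in WT and 2.17, 2.30 and 1.196 in FoxO1 +/- wounds, which differ (log2) by -0.09 (SE 0.32). FoxO1 +/- replicate 3 was the lowest array, and on the second Trim63 probe it was again the lowest, at -0.31 against 0.31 to 0.81 on the other 5. Without FoxO1 +/- replicate 3 the Trim63 difference was 0.26 (SE 0.17), and without FoxO1 +/- replicate 2 it was -0.30.

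The muscle markers were low on that array and on WT replicate 2. The mean log2 level of the 22 markers, all kept, was 4.06, 3.18 and 4.68 in WT and 4.503, 4.22 and 3.14 in FoxO1 +/- wounds, highest on WT replicate 3. Their summed linear level was 897, 503 and 1320 in WT and 1253, 1073 and 513 in FoxO1 +/- wounds, so the lowest array was WT replicate 2 by the sum and FoxO1 +/- replicate 3 by the mean. None of the 22 differed at a limma unadjusted p of 0.05, and their median log2 difference was 0.05 against 0.01 over all genes. That median turned with single arrays: it was -0.40, with 1 of 22 higher, without WT replicate 2, -0.22 without FoxO1 +/- replicate 1, -0.11 without FoxO1 +/- replicate 2, 0.37 without WT replicate 3 and 0.47 without FoxO1 +/- replicate 3. With slide row as a block it was 0.59, with 21 of 22 higher. That value rests on FoxO1 +/- replicate 1, the only array of its genotype in the slide row of the WT arrays. In bulk tissue, fewer muscle cells in a punch and less RNA per muscle cell cannot be told apart. The part of the muscle content in the Trim63 values was not tested.

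Fbxo32 is printed at 10 spots on each array, which gives the scatter of repeated spots of this probe within an array. It was at -0.73, -0.57 and -0.06 in WT and -0.14, -0.61 and -0.57 in FoxO1 +/- wounds, which differ (log2) by 0.01 (SE 0.21). The SD of the 10 spots ran from 0.055 to 0.089 over the arrays, against 0.35 between WT arrays and 0.26 between FoxO1 +/- arrays. The spread of Fbxo32 between arrays was larger than that of repeated spots. Spots of 1 array share the same labelled RNA, so their SD leaves out error from the RNA, labelling and hybridisation. WT replicate 3 and FoxO1 +/- replicate 1 were the high arrays, and the same arrays had the highest muscle marker means.

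**Figure D3:**
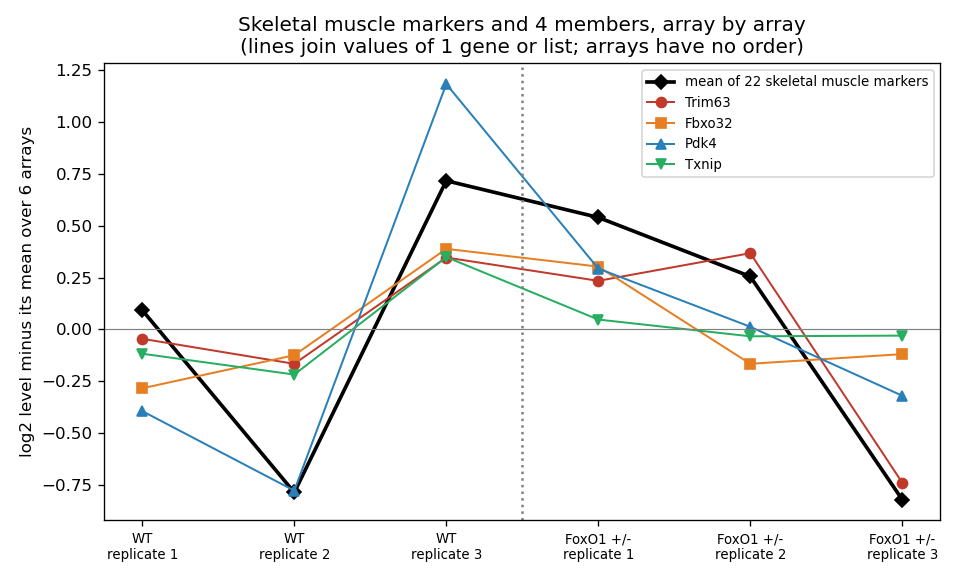
Log2 level minus its own mean over 6 arrays (vertical axis) for the mean of 22 skeletal muscle markers and for Trim63, Fbxo32, Pdk4 and Txnip on each array; lines only join the values of 1 gene or list. All 5 were highest or second highest on WT replicate 3, and Trim63 was lowest, with the muscle markers, on FoxO1 +/- replicate 3.

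What most members shared was an uneven spread. In 9 of 10, all but Trim63, the 3 FoxO1 +/- values lay entirely inside the range of the 3 WT values, which 22.3% of all genes tested showed. In the same 9 members the SD was smaller among FoxO1 +/- than among WT arrays, against 54.7% of all genes. The median SD of the members was 0.29 in WT and 0.069 in FoxO1 +/- wounds, and that of all genes 0.13 and 0.12. Eif4ebp1 had an SD of 0.21 in WT and 0.019 in FoxO1 +/- wounds, Sesn1 0.27 and 0.030, and Txnip 0.30 and 0.046. Genes of the other lists examined below showed both traits too, such as Dusp1 (SD 0.78 and 0.055) and Sesn2 (0.36 and 0.097). Others, such as Fkbp5 (0.15 and 0.38), did not. The smaller SD in FoxO1 +/- wounds was not particular to the members. In the AMPK, hypoxia and glucose use list, all genes but Ldha (0.14 and 0.15) had it. In the glucocorticoid-responsive list, all but Fkbp5, Sgk1, Cebpd and Glul had it. The insulin, PI3K, Akt and TOR list was mixed, as with Igf1 (0.32 and 0.077) and Pik3cd (0.025 and 0.29). How many genes of the lists had all FoxO1 +/- values inside the WT range was not counted. No test was made of this pattern, which was noticed after the values were seen: the members share the same 6 arrays and move together on some of them, so they are not 10 separate observations.

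WT replicates 2 and 3 stood at opposite ends for many members. WT replicate 3 was the highest of the 6 arrays for 5 members (Pdk4, Insr, Txnip, Fbxo32 and Pik3ip1), where it is highest for 11.4% of all genes, and WT replicate 2 was the lowest for 6 (Pdk4, Insr, Txnip, Sesn1, Sesn3 and Pik3ip1), where it is lowest for 18.5%. Without WT replicate 2, 5 members kept all FoxO1 +/- values inside the WT range (6.94% of all genes did), and 6 did without WT replicate 1 (12.2% of all genes) or WT replicate 3 (14.3%). WT replicate 2 also had the lowest adipocyte marker mean, 2.504, where WT replicates 1 and 3 had 3.43 and 3.17 and FoxO1 +/- arrays 3.61 to 3.95. All 15 adipocyte markers were higher in FoxO1 +/- wounds, 8 of them at a limma unadjusted p of 0.05 (3.42% of all genes were, in that direction) and 10 with no overlap (6.9% of all genes), and 0 passed the adjustment. The summed linear level of the 15 adipocyte markers, all kept, was 286 to 539 in WT and 609 to 754 in FoxO1 +/- wounds. Markers of other cell types stood apart on WT arrays too. The summed level of the 12 hair follicle markers kept was 64.1 on WT replicate 1 and 6.04 to 9.34 on the other 5 arrays. All 12 were lower in FoxO1 +/- wounds, 0 of them at a limma unadjusted p of 0.05. Their median log2 difference was -1.15, and without WT replicate 1 it was -0.46, with 0 of 12 higher. Of 11 sebaceous gland markers kept, 9 were lower in FoxO1 +/- wounds. Of these, 5 were at a limma unadjusted p of 0.05 (2.83% of all genes were, in that direction) and 0 passed the adjustment. The summed level of the 11 was 131 to 226 in WT, highest on WT replicate 3, against 103 to 105 in FoxO1 +/- wounds. The 13 T and NK lymphocyte markers kept summed to 27.7 on WT replicate 3 and to 20.7 to 24.5 on the others. All 12 endothelial markers were higher in FoxO1 +/- wounds, 5 with no overlap (6.9% of all genes lay higher in this way). Their median log2 difference was 0.20. With slide row as a block, which rests on FoxO1 +/- replicate 1, it was 0.067, with 9 of 12 higher. All 6 erythrocyte markers kept were higher in FoxO1 +/- wounds, none without overlap, with a median of 0.39. With that block their median was -0.22, with 0 of 6 higher. Of the remaining lists, 11 of 15 keratinocyte markers were lower (median -0.08). Higher were 10 of 13 monocyte and macrophage (0.12), 8 of 13 neutrophil (0.13) and 8 of 11 fibroblast markers (0.07). The part of any of these cell types in the spread of the members was not tested.

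**Figure D4:**
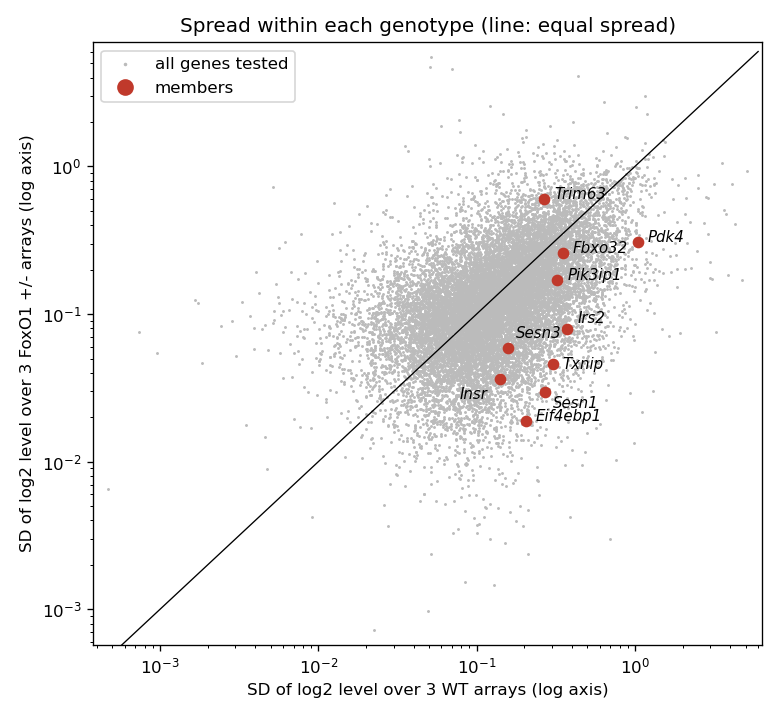
SD of the log2 level over 3 WT arrays (horizontal, log axis) against the SD over 3 FoxO1 +/- arrays (vertical, log axis) for all 16411 genes (grey) and the 10 members (red); the line marks equal spread. All members but Trim63 lie below the line, Eif4ebp1 lowest at 0.21 and 0.019.

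No gene of the surrounding pathway passed the adjustment. Of 37 genes of the insulin, PI3K, Akt and TOR pathway, all kept, 23 were at higher and 14 at lower means in FoxO1 +/- wounds; the median difference (log2) was 0.03 against 0.01 over all genes, and 0 passed a limma adjusted p of 0.05. The median was -0.0058 without FoxO1 +/- replicate 2 and -0.0047 with array median scaling. At an unadjusted p of 0.05 there was 1 in each direction, where 3.42% of all genes were higher and 2.83% lower. Ddit4, a stress-induced inhibitor of TOR, was at 5.18, 5.56 and 5.27 in WT and 5.64, 5.90 and 5.80 in FoxO1 +/- wounds, a difference of 0.44 (SE 0.13, limma adjusted p 0.638). All 3 FoxO1 +/- arrays were above all 3 WT arrays, as for 6.9% of all genes. Of the 37 genes, 2 lay higher and 2 lower with no overlap. Sgk1, a kinase related to Akt, was at 3.79, 3.97 and 3.93 against 3.34, 3.73 and 3.70, with no overlap (4.56% of all genes lay lower in this way), a difference of -0.31 (SE 0.13, limma adjusted p 0.798). Igf1, the growth factor upstream of the pathway, differed by 0.32 (SE 0.17) and was also higher on all 3 FoxO1 +/- arrays. Akt1, the kinase that phosphorylates FoxO, differed by 0.01 (SE 0.08).

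The other FoxO genes and the relatives of the members gave no called difference. Foxo3 differed by 0.15 (SE 0.12), Foxo4 by -0.51 (SE 0.33) and Foxo6 by -0.10 (SE 0.33), while the second, dimmer Foxo4 probe differed by 0.24 (SE 0.20). Of 23 family relatives, 9 were higher and 14 lower, with 0 at an unadjusted p of 0.05 and a median of -0.02. Fbxo40, a muscle F-box gene, and Arrdc3, an arrestin of the Txnip family, differed by -0.22 (SE 0.13) and -0.27 (SE 0.18). The other pyruvate dehydrogenase kinase genes Pdk1, Pdk2 and Pdk3 differed by 0.00 (SE 0.17), 0.02 (SE 0.25) and -0.08 (SE 0.10).

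Genes that share other inputs with the members were examined by list. Of 22 autophagy and muscle atrophy genes, 12 were higher and 10 lower, with 0 at an unadjusted p of 0.05 and a median of 0.03, which was -0.02 with quantile normalization. Mstn, which encodes the muscle growth inhibitor myostatin, differed by 1.49 (SE 0.81, limma adjusted p 0.854), at -2.18, -3.77 and -1.20 in WT and -0.58, 0.08 and -2.17 in FoxO1 +/- wounds, overlapping groups with FoxO1 +/- replicate 3 the lowest of its genotype. Psmd11, a proteasome subunit gene, differed by -0.15 (SE 0.07) and Gabarap, of autophagosomes, by 0.16 (SE 0.10). Of 16 glucocorticoid-responsive genes, 11 were higher, with a median of 0.15, which was 0.03, with 8 of 16 higher, without WT replicate 1. In this list Ddit4, Sgk1 and Mt1 (0.28, SE 0.13) had the smallest p-values.

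Of 19 genes of fatty acid oxidation that PPAR factors control, as they do Pdk4, 8 were higher and 11 lower, with a median of -0.04. Ucp2, a mitochondrial carrier, differed by -0.14 (SE 0.07), the oxidation enzyme gene Hadha by -0.11 (SE 0.07) and Cpt1a, which admits fatty acids to mitochondria, by -0.12 (SE 0.08). Of 14 AMPK, hypoxia and glucose use genes, 10 were higher, with a median of 0.04. Prkag2, a subunit of AMPK, differed by 0.15 (SE 0.07), the growth factor gene Vegfa by 0.28 (SE 0.16) and the glycolysis regulator Pfkfb3 by 0.29 (SE 0.17). Without WT replicate 1 the medians of these last lists were 0.015 and -0.00043. No list held a gene past a limma adjusted p of 0.05.

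For the member of the widest spread, Pdk4, the genes with the most similar pattern over the 6 arrays were Ptprcap, Klhl24, Gnao1 and Plin5, with Pearson correlations of 0.99, 0.98, 0.98 and 0.97. Plin5 coats lipid droplets in tissues that burn fat, and it was at -1.12, -1.87 and 0.11 in WT and -0.77, -0.79 and -1.15 in FoxO1 +/- wounds, highest on WT replicate 3 as Pdk4 was. For Irs2, the member with the smallest p-value, they were Trim30b, Dgat1, Fam169b and Pla1a, with correlations of 0.97, 0.96, 0.96 and 0.96. Dgat1, an enzyme of triglyceride synthesis, was at 1.51, 2.83 and 2.47 in WT and 1.84, 1.84 and 1.90 in FoxO1 +/- wounds. These are the highest of many correlations over 6 arrays and are given as a description only.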

How the data were processed

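Wound RNA of day 3, in 3 WT and 3 FoxO1 +/- samples, was hybridised to 1-colour Agilent arrays, with Cy3-labelled cRNA from 200 ng of RNA, per the labels' protocols. The deposited spot intensity values were extracted with Agilent Feature Extraction 10.7.1.1, per the file headers, although version 9.1 stands in the submitters' processing notes; the processed signal is corrected within an array and not scaled between arrays. The deposited flags (other values, 0 or 1 per spot) marked outlier spots, saturation (none) and spots well above background.

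Log2 processed signals were averaged over a probe's unflagged spots, and each array's 75th percentile was subtracted. Of 55681 distinct probes, 36 lacked an unflagged value on some array. Accessions were named through a RefSeq table of GRCm38.p6. A probe was kept where all arrays of 1 or both genotypes had it well above background (37902 probes), and the brightest kept probe stood for a gene (16411 genes). FoxO1 +/- was compared with WT by limma 3.58.1 (two-sided, R 4.3.3), with Benjamini-Hochberg adjustment over all genes, or over all kept probes; the samples per genotype were 3, and an exact permutation test of 3 against 3 cannot give a p under 0.1. The number of arrays limits the precision. Tested on simulated data of 16411 genes made from this comparison, 76 of 100 genes changed 2-fold and 96 of 100 changed 4-fold were called, with 18 false calls. The false calls were 18 at each fold, a larger share of the calls than an adjustment at 0.05 is meant to allow. The simulation changed 100 genes at each fold, and the cutoff of the adjustment loosens as more genes change. In the real comparison 1 gene was called, so a single changed gene faced a stricter cutoff than in the simulation. These shares therefore need not hold for the members, whose median SD in WT was also larger, 0.29 against 0.13 for all genes. On the real arrays the second Foxo1 probe, at 0.54 of WT, was not called (limma adjusted p 0.190 over probes).

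The members and lists were chosen with earlier results of these data known. Genes named beyond the members are the FoxO genes, the 3 of each pathway list with the smallest p-values and the brightest markers. For Pdk4 and Irs2, the 4 most similar genes with an SD of at least 0.2 are also named. Akt1, the Pdk genes, Sesn2, Eif4ebp3 and S100a9 were added as relatives or for context. Dusp1, Fkbp5, Ldha, Cebpd, Glul and Pik3cd were named to describe the spread, after the values were seen. The alternatives were other background corrections, scalings, filters and probe rules, blocks, and leaving out each array. In slide row 1 lay all WT arrays with FoxO1 +/- replicate 1, in row 2 the others; all were on 1 slide, in 1 scan. Replicate numbers were not treated as pairs in the main fit.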

Additional observations from a re-analysis of the deposited data

How the results depend on the processing

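In the 17 settings tried for each member, and on the 4 further member probes, no member passed a limma adjusted p of 0.05, the smallest being 0.620. The sign of a difference changed in 33 of 174 cases, 19 of them when an array was left out; the cause was not tested. With slide row as a block and within slide row 1, where FoxO1 +/- replicate 1 stands alone against WT and is assumed to vary like the others, Pdk4 differed by 0.29, Txnip by 0.043, Sesn1 by 0.016, Sesn3 by -0.0092 and Trim63 by 0.19, and Fbxo32, with its sign kept, by 0.31. Insr differed by 0.035 with normexp background correction (on median signals, since the files used here give no mean signal), by 0.046 as the mean of its probes and by 0.23 on its second probe, and Fbxo32 by -0.017 with array median scaling. Leaving out single arrays gave -0.40 to 0.58 for Pdk4, -0.13 to 0.0082 for Insr, -0.12 to 0.16 for Txnip, -0.16 to 0.093 for Sesn1, -0.012 to 0.14 for Sesn3, -0.14 to 0.21 for Fbxo32, -0.30 to 0.26 for Trim63, -0.082 to 0.11 for Eif4ebp1, -0.26 to 0.048 for Pik3ip1 and -0.43 to -0.094 for Irs2.

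Members at an unadjusted p of 0.05 numbered 0 to 1 when arrays were left out. Members with all FoxO1 +/- values inside the WT range then numbered 5 to 9 (6.94% to 35.4% of all genes), and those with the smaller SD in FoxO1 +/- wounds 7 to 10 (38.8% to 68.7% of all genes); both were 9 with array median scaling, quantile normalization, normexp and the authors' value table, settings chosen for this pattern after seeing the data. Over all genes, limma called 0 with normexp, with trend and robust eBayes, or with only probes above background on all 6 arrays, 2 with quantile normalization, 5 with array median scaling, 3 without a filter, 7 with slide row as a block, 4 within row 1, and 0 to 28 without single arrays. With the replicate block 0 genes and 0 members were called. Same-numbered arrays deviated from their group means with correlations of -0.068, -0.14 and -0.30. Deviations from a mean of so few arrays are tied to each other, so these values cannot decide whether the numbers pair the arrays. Counts at an unadjusted p ran from 478 to 1493 genes over these settings. Dim probes, such as those of Foxo4, have the least signal over background.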
